A study of Mus musculus with 16 samples.

Results

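The genes that encode the machinery of mitochondrial fusion and fission were followed probe by probe in the left ventricles of male mice that differed in surgery and in the origin of chromosome Y. The 9 genes, Mfn1, Mfn2, Opa1, Dnm1l, Fis1, Mff, Oma1, Mtfr1 and Mief1, were chosen by name from 16593 genes with a probe, and every probe that the platform annotation assigns to them was taken, which gave 19 of the 25697 probes on the array. Each of the 16 arrays of the Illumina MouseRef-8 v2.0 BeadChip carried RNA from the left ventricle of 1 mouse aged 12 weeks, with 4 mice per group. The groups were castrated (CX) C57.YA, sham-operated C57.YA, CX C57BL/6J and sham-operated C57BL/6J. The testes were removed before puberty, so that the comparison of CX with sham-operated mice addresses the effect of testicular hormones. C57.YA is a consomic strain, whose males carry chromosome Y of strain A/J (chrY A) on the C57BL/6J background, so that the comparison of the strains addresses chromosome Y. All mice were male, the hearts were whole-tissue samples, and an mRNA that is lower per cell cannot be told apart from a smaller share of the cells that express it.

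Mitochondria of cardiomyocytes are joined and divided by GTPases of the dynamin family. Mitofusins 1 and 2 (Mfn1, Mfn2) join the outer membranes of neighbouring organelles, whereas Opa1 joins the inner membranes and keeps the cristae closed. Division is carried out by Drp1, encoded by Dnm1l, which is recruited from the cytosol by receptors of the outer membrane, among them Mff, Fis1 and Mief1 (MiD51). Oma1 is a protease of the inner membrane that cleaves Opa1 when the membrane potential is lost, and Mtfr1 is a regulator associated with fission. Loss of both mitofusins from the mouse heart is known to cause dilated cardiomyopathy, and Mfn2 also links mitochondria to the sarcoplasmic reticulum.

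The genes lie on 6 chromosomes. In assembly GRCm38.p6 they occupy chr1:82724890-82752390 (Mff), chr3:19187315-19220817 (Mtfr1), chr3:32529443-32579225 (Mfn1), chr4:103311875-103371869 (Oma1), chr4:147873586-147904909 (Mfn2), chr5:136953275-136966234 (Fis1), chr15:80233964-80253372 (Mief1), chr16:16312228-16359038 (Dnm1l) and chr16:29579281-29663127 (Opa1). Promoter windows of 300 bases, from 250 bases before to 50 bases after an annotated start, were available from RefSeq for 8 of the 9 genes. Those of the 4 genes with a probe that passed the test in some comparison are shown 5′ to 3′ because the probes of these genes carry the results that follow. The capitals mark matches to the GC box (GGGCGG) and to the palindromic site of the transcription factor NRF1, both searched on both strands. The windows are chr3:32529232-32529531 (plus strand), chr4:147904860-147905159 (minus strand, the first of 3 annotated starts), chr16:29579084-29579383 (plus strand) and chr4:103313596-103313895 (plus strand).
Mfn1: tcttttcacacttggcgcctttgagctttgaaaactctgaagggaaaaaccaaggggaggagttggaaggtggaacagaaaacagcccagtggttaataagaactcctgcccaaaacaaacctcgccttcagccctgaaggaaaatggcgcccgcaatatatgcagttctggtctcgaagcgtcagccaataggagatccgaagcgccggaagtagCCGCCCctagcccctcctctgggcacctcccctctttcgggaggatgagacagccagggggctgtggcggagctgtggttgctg
Mfn2: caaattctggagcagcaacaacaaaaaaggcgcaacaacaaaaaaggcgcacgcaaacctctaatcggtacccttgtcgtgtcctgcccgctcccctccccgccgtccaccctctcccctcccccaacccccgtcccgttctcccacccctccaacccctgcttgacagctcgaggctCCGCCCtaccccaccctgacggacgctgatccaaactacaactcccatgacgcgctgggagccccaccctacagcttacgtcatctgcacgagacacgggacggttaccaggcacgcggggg
Opa1: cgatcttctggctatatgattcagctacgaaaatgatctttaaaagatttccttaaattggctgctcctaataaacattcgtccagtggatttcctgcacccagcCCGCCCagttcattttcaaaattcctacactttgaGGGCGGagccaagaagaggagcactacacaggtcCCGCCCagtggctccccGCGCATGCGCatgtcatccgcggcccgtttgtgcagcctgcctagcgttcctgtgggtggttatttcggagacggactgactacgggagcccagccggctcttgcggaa
Oma1: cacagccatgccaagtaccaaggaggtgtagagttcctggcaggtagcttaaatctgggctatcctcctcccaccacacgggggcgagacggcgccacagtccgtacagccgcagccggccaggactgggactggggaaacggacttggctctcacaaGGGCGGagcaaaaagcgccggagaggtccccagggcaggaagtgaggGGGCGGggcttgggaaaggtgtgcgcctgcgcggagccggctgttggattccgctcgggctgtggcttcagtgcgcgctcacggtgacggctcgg
The Mfn1 window and the Mfn2 window shown each held 1 GC box, the Oma1 window held 2 and the Opa1 window held 3, whereas 35.7% of 32851 windows of this length held at least 1. The windows of the other Mfn2 starts held 0. The Opa1 window was the only one of the members with the NRF1 site, which was in 0.971% of all windows and did not overlap a GC box. None of the members' windows held an estrogen-related receptor site (TCAAGGTCA, in 0.423% of all windows), a full androgen response element (in 0.00913%) or an E-box (CACGTG, in 7.15%). The G and C content of the windows shown was 55.3% for Mfn1, 62.3% for Mfn2, 53.3% for Opa1 and 65.7% for Oma1, against a median of 52.7% over all windows. These matches are a description of the letters in a window, not of bound sites.

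Values are log2 signals after quantile normalization of the 16 arrays together, and a probe was tested when its detection p was at most 0.04 on at least 2 of the 4 arrays of some group. By this rule 12764 probes were tested, and 11435 to 12212 probes were detected per array. Of the 19 member probes, 16 were tested, representing 8 genes. The only probe of Mtfr1 (ILMN_2600762) was not detected on any array, nor was 1 of 3 probes of Mff (ILMN_2598648) or 1 of 2 probes of Mief1 (ILMN_2603422). Of the tested probes, 15 were detected on all 16 arrays, and the exception was ILMN_1232014, 1 of 3 probes of Mfn1, which was detected on 0 of 4 CX C57.YA, 0 of 4 sham C57.YA, 2 of 4 CX C57BL/6J and 1 of 4 sham C57BL/6J arrays. Ventricular identity was clear, as all 7 measured markers of ventricular cardiomyocytes were detected on all arrays. However, the mean log2 signal of 4 atrial genes (Myl4, Myl7, Sln and Mybphl) was 9.23 to 11.16 on the CX C57BL/6J arrays, whereas it was 7.09 to 7.65 on the CX C57.YA arrays, 6.99 to 7.19 on the sham C57.YA arrays and 7.03 to 7.11 on the sham C57BL/6J arrays. In the 3 other groups only 1 of the 4 atrial genes was detected on all 4 arrays. The atrial signal therefore moved with every comparison that contains CX C57BL/6J hearts, and the outcome with it as a covariate is given for the calls that involve these hearts. Since it was high in these hearts alone, the covariate largely coincides with the group. It widens the standard error (SE) of such comparisons, as from 0.28 to 0.71 for Mfn2 ILMN_1259831 between the strains in CX hearts. A call lost with it therefore cannot tell atrial tissue apart from strain or surgery. Markers of some other cell types also separated CX from sham C57.YA hearts, in which castration gave the member calls. The mean log2 signal was 10.53 to 10.74 in CX C57.YA against 10.19 to 10.49 in sham C57.YA hearts for 6 fibroblast genes, 9.59 to 9.98 in CX against 10.09 to 10.54 in sham hearts for 3 smooth muscle genes and 7.74 to 7.89 in CX against 8.37 to 8.75 in sham hearts for 2 mesothelial genes. The smooth muscle genes likewise separated CX (9.51 to 9.91) from sham C57BL/6J hearts (9.97 to 10.33). So did the 7 ventricular genes, at 13.40 to 13.42 in CX against 13.46 to 13.50 in sham C57BL/6J hearts. In C57.YA the ventricular genes overlapped (13.41 to 13.52 in CX and 13.51 to 13.57 in sham hearts). Endothelial, macrophage and red blood cell genes overlapped between CX and sham C57.YA hearts. The part of these cell types in the results was not tested.

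**Figure D1:**
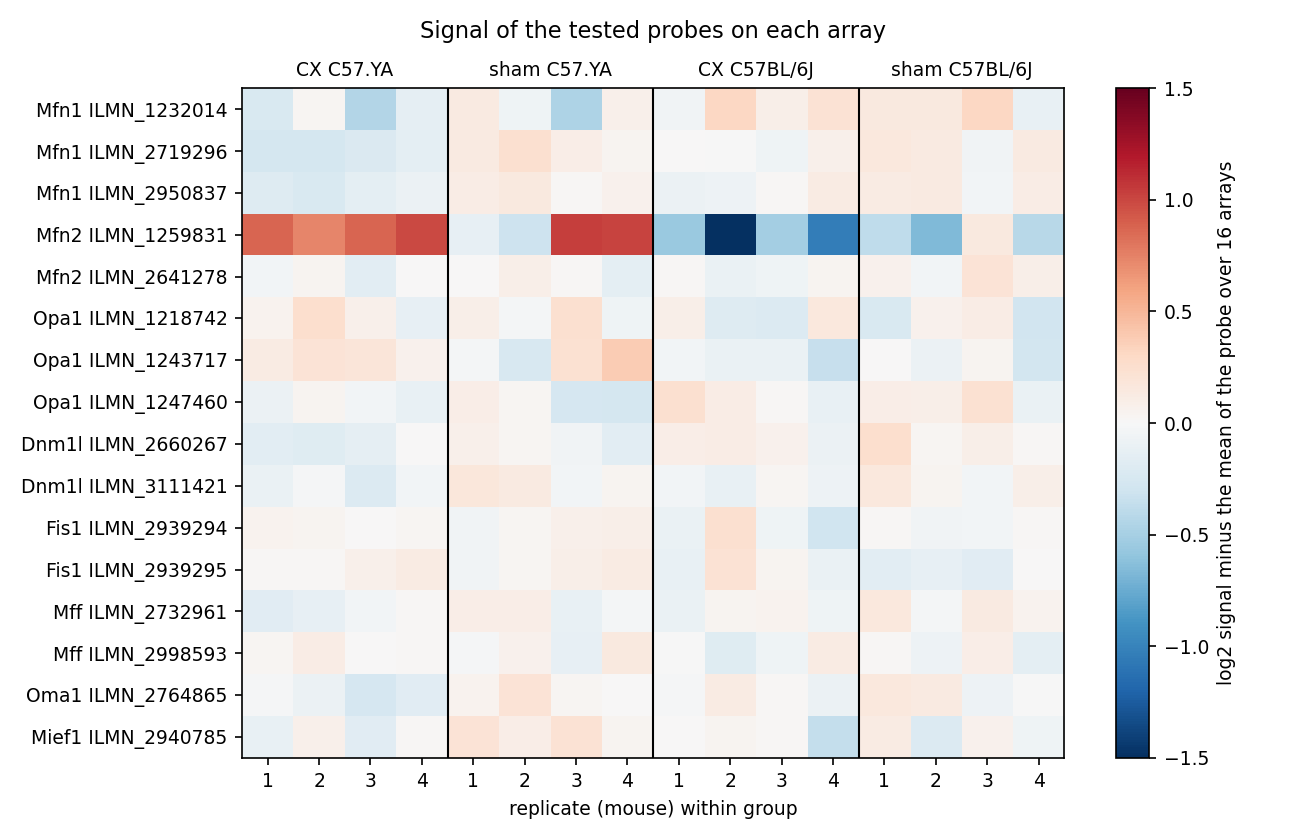
Log2 signal of each of the 16 tested probes (rows) on each of the 16 arrays (columns, 4 mice per group), as the deviation from the mean of that probe over all arrays; red is above and blue below the mean. Mfn2 ILMN_1259831 spans 2.7 log2 units, against 0.32 to 0.77 for the other rows.

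Each comparison was tested with limma in 1 model over all arrays, with p-values adjusted after Benjamini and Hochberg for 12764 probes and a call at an adjusted p under 0.1. After castration in C57.YA mice, 3 of the 16 member probes were called, all lower in CX hearts, where 19.7% of all tested probes were called (9.55% higher and 10.1% lower). In C57BL/6J mice, castration gave calls for 0 of 16 probes, against 8.81% of all tested probes (4.10% higher and 4.71% lower), and 1 member probe had an unadjusted p under 0.05. Between the strains, 4 of 16 member probes were called in CX hearts, 2 higher and 2 lower in C57.YA, against 23.4% of all probes (11.6% higher and 11.8% lower). In sham-operated hearts 0 of 16 were called against 4.29% of all probes, and for the interaction of strain and surgery 0 of 16 against 2.88%, with 2 member probes at an unadjusted p under 0.05 in each. Where members were called, their share was near that of all probes. With only 16 probes of 8 genes, the 0 calls in the other comparisons do not set the members apart from all probes. The median log2 difference of the 16 probes was -0.06 for castration in C57.YA, -0.05 for castration in C57BL/6J, -0.03 for strain in CX hearts, 0.03 for strain in sham hearts and -0.04 for the interaction, whereas that of all tested probes was between -0.01 and 0.00. With median scaling in place of quantile normalization, the split of all calls shifted to 1243 higher and 448 lower for castration in C57.YA, against 1219 and 1291 before. It became 366 and 197 for castration in C57BL/6J, against 523 and 601, and 736 and 1353 for strain in CX hearts, against 1480 and 1512. The members then counted 2 lower for castration in C57.YA, and 2 higher and 3 lower for strain in CX hearts.

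**Figure D2:**
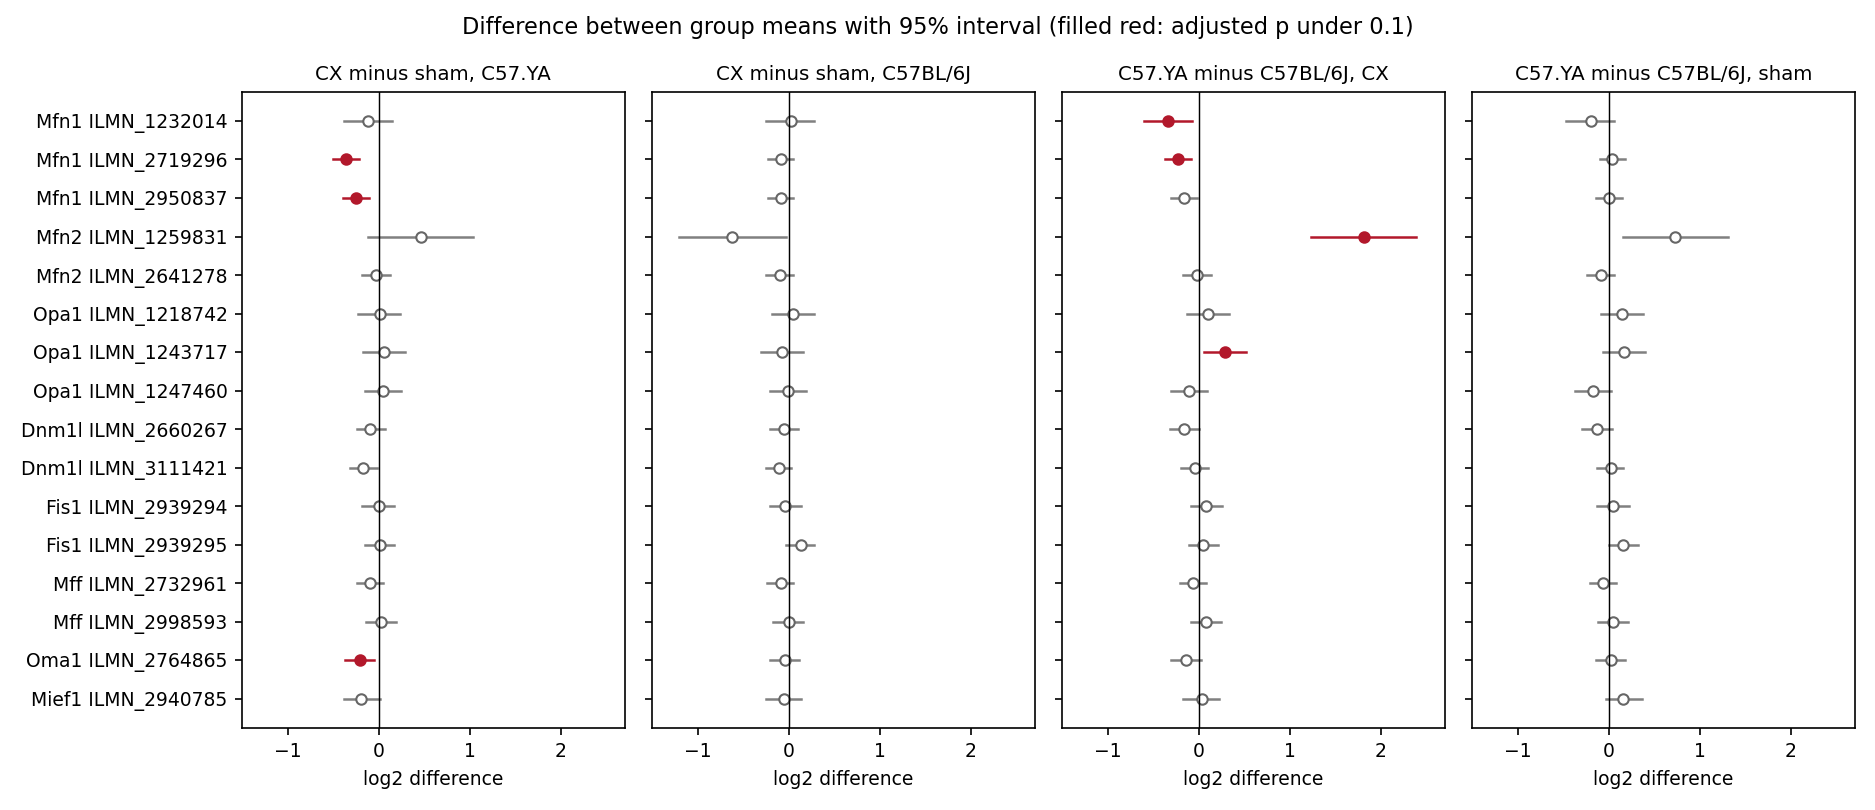
Log2 difference of each tested member probe, first-named minus second-named group, in 4 comparisons; points are differences between means of 4 mice, bars are 95% intervals from limma and filled red points have an adjusted p under 0.1. The 3 calls after castration in C57.YA lie below 0, and the Mfn2 difference of 1.81 between the strains in CX hearts is the farthest from 0.

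Both well-detected probes of Mfn1 were lower in castrated C57.YA hearts than in sham-operated ones. On probe ILMN_2719296 the log2 signal was 13.75, 13.74, 13.79 and 13.86 in CX C57.YA hearts, against 14.14, 14.25, 14.11 and 14.05 in sham C57.YA hearts. The groups did not overlap, and the difference was -0.36 (SE 0.07, 95% interval -0.50 to -0.22, limma adjusted p = 0.00142), or 1.28-fold lower in CX hearts. In C57BL/6J the same probe read 14.01, 14.00, 13.94 and 14.09 in CX hearts, against 14.17, 14.14, 13.96 and 14.14 in sham hearts, groups that overlapped, with a difference of -0.09 (95% interval -0.23 to 0.05, limma adjusted p = 0.495). The interaction, the effect of castration in C57.YA minus that in C57BL/6J, was -0.27 (95% interval -0.46 to -0.07, unadjusted p = 0.0111, limma adjusted p = 0.178), so that a difference between the strains in the effect of castration on Mfn1 did not pass the threshold. With the atrial covariate, castration in C57BL/6J gave -0.02 (limma adjusted p = 0.984) and the interaction -0.33 (0.617).

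On the second probe of Mfn1, ILMN_2950837, the log2 signal was 13.96, 13.92, 14.01 and 14.07 in CX C57.YA hearts, against 14.26, 14.30, 14.17 and 14.22 in sham C57.YA hearts. The groups again did not overlap, with a difference of -0.25 (SE 0.07, 95% interval -0.39 to -0.11, limma adjusted p = 0.017). In C57BL/6J the probe read 14.07, 14.08, 14.17 and 14.28 in CX hearts, against 14.28, 14.29, 14.11 and 14.26 in sham hearts, and the difference of -0.09 was not called (limma adjusted p = 0.53). The probes followed each other closely, with a Pearson r of 0.94 over the 16 arrays, which share the labelling and the hybridization of each mouse. Both were among the brightest on the array, as 0.969% and 0.844% of all probes had a higher mean signal. Leaving out any one array kept both calls, with differences of -0.38 to -0.32 for ILMN_2719296 and of -0.28 to -0.23 for ILMN_2950837. The call of ILMN_2950837 was lost without sham C57.YA replicates 1 and 2 (-0.21, limma adjusted p = 0.145), whereas that of ILMN_2719296 was kept under every alternative run. Castration in C57BL/6J, with the atrial covariate, gave 0.14 on ILMN_2950837 (limma adjusted p = 0.824).

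**Figure D3:**
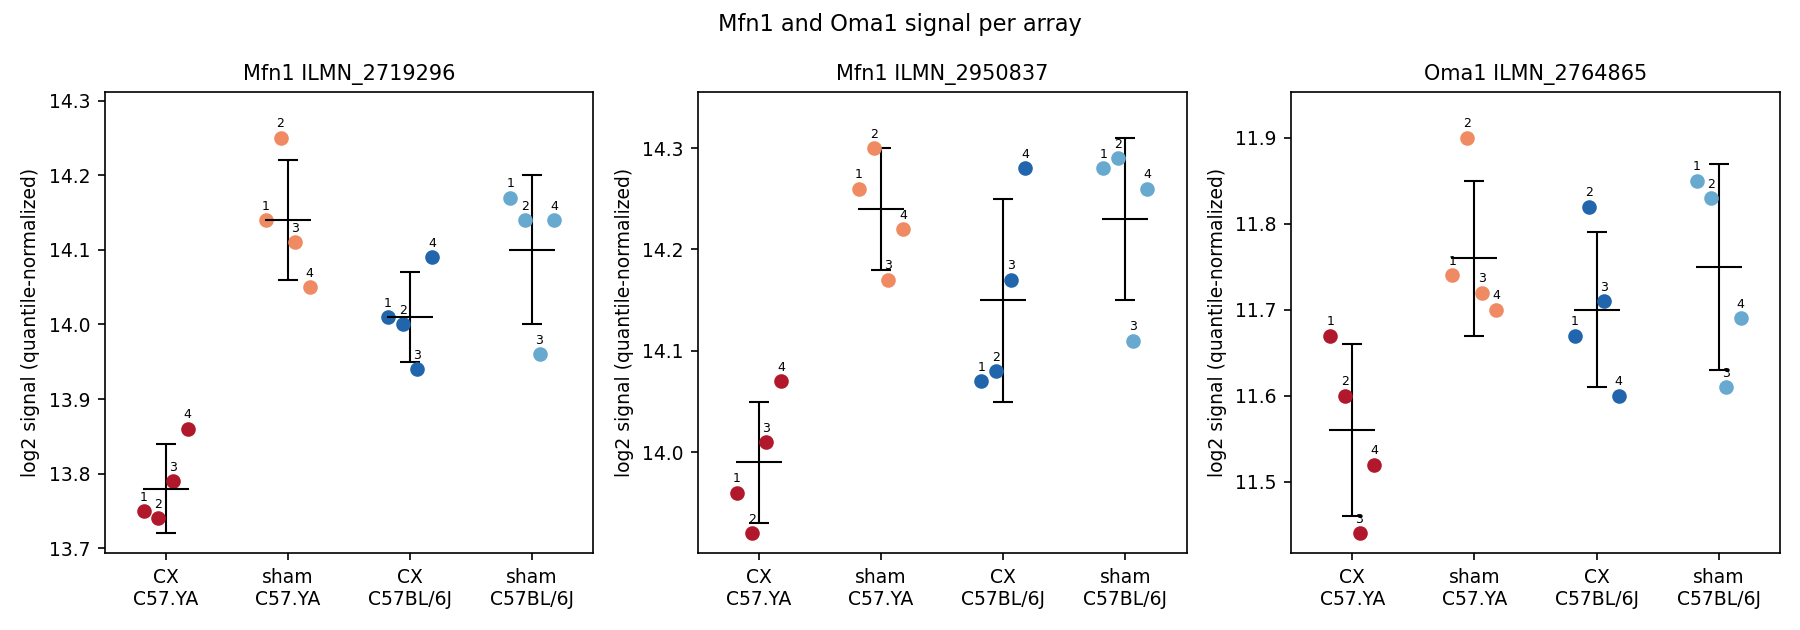
Log2 signal of both well-detected Mfn1 probes and of the Oma1 probe in each mouse (points, numbered by replicate) by group, with the mean and SD of 4 mice; the y axes differ in range. In all 3 panels the CX C57.YA points lie below every sham C57.YA point, whereas in C57BL/6J the CX and sham points overlap.

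Between the strains in CX hearts, Mfn1 was also lower in C57.YA on ILMN_2719296, where the 4 C57.YA values of 13.74 to 13.86 lay below the 4 C57BL/6J values of 13.94 to 14.09 (difference -0.23, SE 0.07, limma adjusted p = 0.0274). ILMN_2950837 differed by -0.16 in the same comparison and was not called (95% interval -0.30 to -0.02, limma adjusted p = 0.106). The third probe, ILMN_1232014, averaged 6.57 ± 0.20 in CX C57.YA and 6.90 ± 0.16 in CX C57BL/6J hearts (SD, n = 4 each) and was called (-0.34, limma adjusted p = 0.0749), but it was not detected in any CX C57.YA heart and in 2 of 4 CX C57BL/6J hearts, so that no fold is given. The call of ILMN_2719296 was kept without each array in turn (-0.25 to -0.20), whereas that of ILMN_1232014 was lost without CX C57.YA replicate 1, 3 or 4 or CX C57BL/6J replicate 2, 3 or 4 (limma adjusted p between 0.105 and 0.221). With the atrial signal as a covariate the differences were -0.29 (SE 0.18, limma adjusted p = 0.569) and -0.15 (SE 0.34, 0.915), so that neither was called. Without the covariate the differences were -0.23 (SE 0.07) and -0.34 (SE 0.13). The covariate largely coincides with the CX C57BL/6J group, so that this fit cannot tell atrial tissue apart from strain. The part of atrial tissue in these differences was not tested. In sham hearts, ILMN_2719296 differed by 0.04 between the strains (95% interval -0.10 to 0.18).

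Oma1, the protease that cleaves Opa1, was measured by 1 probe (ILMN_2764865) and moved with Mfn1. It read 11.67, 11.60, 11.44 and 11.52 in CX C57.YA hearts, against 11.74, 11.90, 11.72 and 11.70 in sham C57.YA hearts, a difference of -0.21 (SE 0.08, limma adjusted p = 0.0766) between groups that did not overlap. In CX C57BL/6J hearts it read 11.67, 11.82, 11.71 and 11.60, against 11.85, 11.83, 11.61 and 11.69 in sham C57BL/6J hearts, and the groups overlapped (-0.04, 95% interval -0.20 to 0.11). It was -0.38 with the atrial covariate (SE 0.20, limma adjusted p = 0.51). Its Pearson r over 16 arrays was 0.73 with ILMN_2719296 and 0.60 with ILMN_2950837. This call was the least stable of those after castration. It was lost without CX C57.YA replicate 2, 3 or 4 or sham C57.YA replicate 1 or 2 (differences of -0.22 to -0.16, limma adjusted p between 0.108 and 0.22), and under median scaling (-0.15, limma adjusted p = 0.384).

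Mfn2 was measured by 2 probes that did not agree. The first, ILMN_1259831, read 10.77, 10.63, 10.77 and 10.89 in CX C57.YA hearts, against 9.35, 8.24, 9.39 and 8.86 in CX C57BL/6J hearts. Every C57.YA value was above every C57BL/6J value, and the difference was 1.81 (SE 0.28, 95% interval 1.23 to 2.39, limma adjusted p = 0.00101), or 3.5-fold higher in C57.YA. The second probe, ILMN_2641278, read 15.19, 15.28, 15.08 and 15.24 in CX C57.YA hearts, against 15.26, 15.14, 15.17 and 15.28 in CX C57BL/6J hearts. These groups overlapped throughout, with a difference of -0.02 (95% interval -0.17 to 0.13, limma adjusted p = 0.907), so that a change as large as that of the first probe was outside the interval of the second. However, the second probe was very bright, as 0.272% of all probes had a higher mean signal. Its unnormalized signal was 33050 to 47620, where the highest of any probe was 67559. Whether a probe this bright responds in proportion to its mRNA was not tested. The gap between the probes, first minus second, changed by 1.82 between the strains in CX hearts (exact permutation test, two-sided p = 0.0286, the smallest that 4 against 4 mice allow, adjusted p = 0.286 over 40 such tests). That these probes disagree was known from earlier results when the test was chosen. The probes had a Pearson r of -0.13 over the 16 arrays.

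The first Mfn2 probe was highest in CX C57.YA hearts (10.77 ± 0.11), followed by sham C57.YA (10.30 ± 0.72), sham C57BL/6J (9.57 ± 0.34) and CX C57BL/6J hearts (8.96 ± 0.54, SD, n = 4 each). Neighbouring groups in this order did not differ past the threshold. Castration in C57.YA gave 0.46 (limma adjusted p = 0.292), strain in sham hearts gave 0.73 (unadjusted p = 0.0168, limma adjusted p = 0.184) and castration in C57BL/6J gave -0.62 (unadjusted p = 0.039, limma adjusted p = 0.223). The interaction of 1.08 (95% interval 0.26 to 1.90, unadjusted p = 0.0128, limma adjusted p = 0.191) did not pass either. With the atrial covariate, castration in C57BL/6J gave 0.55 (SE 0.75, limma adjusted p = 0.839) and the interaction -0.02 (SE 0.76, adjusted p = 0.998). Neither was called, and with SEs this wide no change of sign is read from them.

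The spread of this probe within groups was unusual. The sham C57.YA hearts read 9.78, 9.59, 10.94 and 10.91, and the sham C57BL/6J hearts read 9.52, 9.24, 10.05 and 9.49. Replicates 3 and 4 of sham C57.YA lay above all 4 CX C57.YA hearts, whereas replicates 1 and 2 lay within the range of the sham C57BL/6J hearts. An SD as large as the 0.72 of sham C57.YA was found for 16 of 12764 tested probes (0.125%), counting the probe itself, and as large as the 0.54 of CX C57BL/6J for 23 (0.18%), whereas the second Mfn2 probe had SDs of 0.07 to 0.11. The standard error over the 23 to 51 beads behind each value of the first probe was 2.6% to 5.9% of the signal, which covers variation between beads of 1 array only. The differences that involve sham C57.YA depended on which of these mice were included. Strain in sham hearts gave 1.35 without replicates 1 and 2 and 0.11 without replicates 3 and 4, and castration in C57.YA gave -0.16 without replicates 1 and 2 and 1.08 without replicates 3 and 4. These pairs were left out because they were known to stand apart, so that the values are given without a test. Leaving out a single array was enough for a call for strain in sham hearts (without sham C57.YA replicate 1, 0.90, limma adjusted p = 0.0902, without replicate 2, 0.97, 0.0559) and for the interaction (without sham C57.YA replicate 3, 1.29, 0.0876, without replicate 4, 1.28, 0.0844). Each of these arrays belongs to 1 side of the same known split, so that these calls are no test either.

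The difference of the first Mfn2 probe between the strains in CX hearts did not depend on any one array, with 1.57 to 1.95 over the 16 fits that left out 1 array each. The atrial signal was high in the same CX C57BL/6J hearts in which this probe was low. Within that group, replicate 2 had the highest atrial signal (11.16) and the lowest Mfn2 value (8.24), whereas replicate 4 had the lowest atrial signal (9.23) and the next lowest Mfn2 value (8.86). With the atrial signal as a covariate the difference was 0.72 (SE 0.71, limma adjusted p = 0.759), and the part of atrial tissue was not tested. The low values of sham C57.YA replicates 1 and 2 and of the sham C57BL/6J hearts stood beside an atrial signal of 6.99 to 7.13. The high values of sham C57.YA replicates 3 and 4 stood beside 7.035 and 7.192, and those of the CX C57.YA hearts beside 7.09 to 7.65. None of these groups had a high atrial signal, so that these values do not bear on the CX C57BL/6J hearts.

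**Figure D4:**
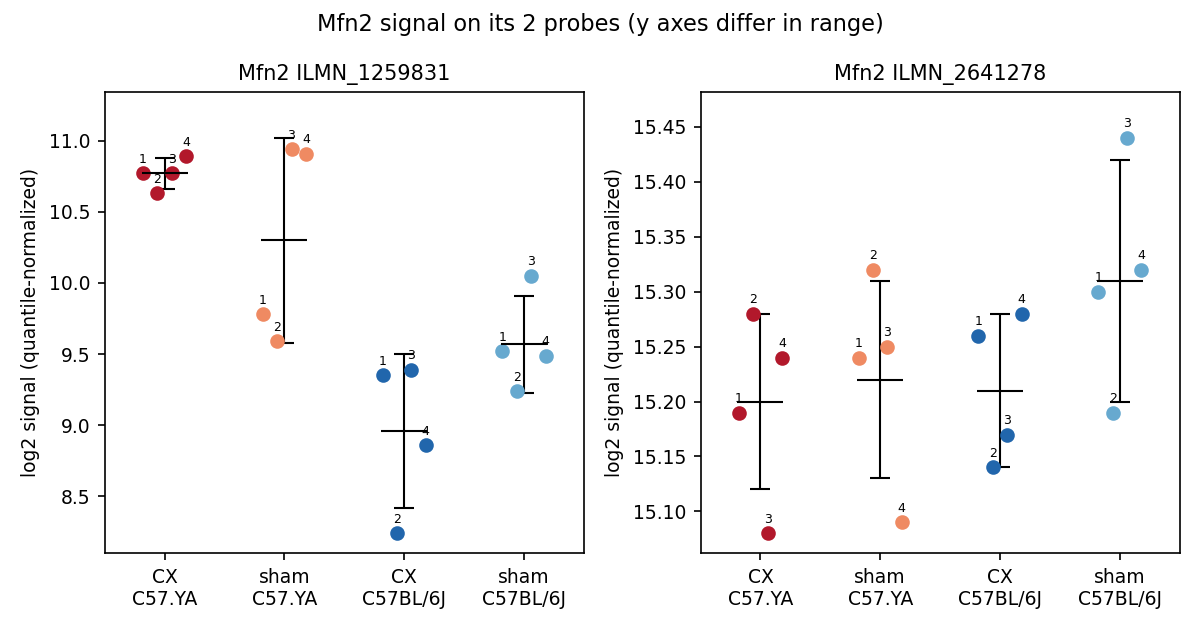
Log2 signal of both Mfn2 probes in each mouse (points, numbered by replicate) by group, with the mean and SD of 4 mice; the y axes differ in range. On the left, the 4 CX C57.YA hearts and sham C57.YA replicates 3 and 4 lie at 10.63 to 10.94 and all other hearts at 8.24 to 10.05; on the right, all hearts lie between 15.08 and 15.44.

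The probes whose pattern over the 16 arrays was most like that of the first Mfn2 probe were those of Dctn1, a subunit of the dynactin complex (Pearson r = 0.995), Cacna1c, the pore-forming subunit of the cardiac L-type calcium channel (0.985), Hdlbp, an RNA-binding protein (0.976), Sptbn1, a spectrin (0.972), and Add1, an adducin (0.971). In total 31 tested probes had an r above 0.95. The Dctn1 probe (ILMN_2691157) read 10.28, 10.33, 10.40 and 10.57 in CX C57.YA hearts, against 8.30, 6.63, 8.28 and 7.79 in CX C57BL/6J hearts. In sham hearts it read 8.76, 8.40, 10.48 and 10.59 in C57.YA, against 8.64, 8.20, 9.39 and 8.61 in C57BL/6J. The split among the sham C57.YA mice was therefore shared by this probe, which was not detected in CX C57BL/6J replicate 2. These likenesses were ranked over the same arrays and are given without a test.

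**Figure D5:**
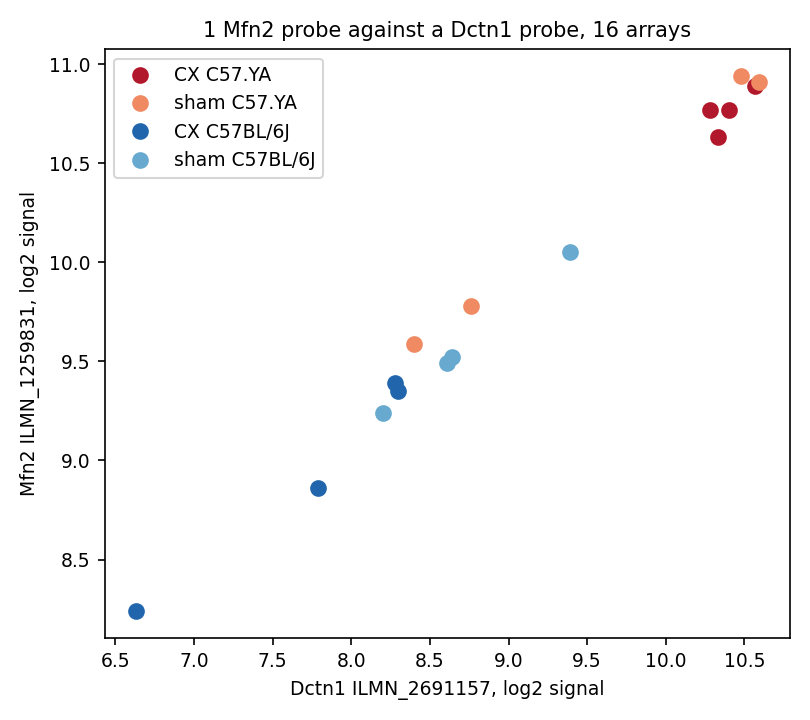
Log2 signal of the first Mfn2 probe (y axis) against that of the Dctn1 probe with the most similar pattern (x axis), 1 point per mouse, coloured by group. Sham C57.YA replicates 3 and 4 lie beside the CX C57.YA points and replicates 1 and 2 beside the sham C57BL/6J points, and CX C57BL/6J replicate 2 is lowest on both axes.

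For the genes most like the other called probes, the highest Pearson r over 16 arrays was 0.954 with Mprip, 0.914 with a probe of Cycs (cytochrome c), 0.910 with Cpt1b (the muscle carnitine palmitoyltransferase), 0.909 with Ptpn11 and 0.901 with Parp3 for Mfn1 ILMN_2719296. Parp3 (0.918), Qrsl1 (0.908), Mprip (0.905), Dnajb2 (0.890) and Med8 (0.888) were closest to Mfn1 ILMN_2950837, so that Mprip and Parp3 were shared by both Mfn1 probes. ILMN_1232014, the poorly detected Mfn1 probe, was closest to Cspp1 (0.836), Ube2e1 (0.830), Nepro (0.828), Tomm70a (0.821) and Naprt (0.820). Rbm4 (0.911), Lcn4 (0.894), Gstk1 (0.882), Fam110b (0.881) and Ddx51 (0.881) were closest to Oma1.

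Opa1, the fusion GTPase of the inner membrane, was measured by 3 probes, of which 1 was called. On ILMN_1243717 the log2 signal was 7.64, 7.72, 7.69 and 7.58 in CX C57.YA hearts, against 7.47, 7.41, 7.41 and 7.17 in CX C57BL/6J hearts. The groups did not overlap, and C57.YA was higher by 0.29 (SE 0.11, 95% interval 0.06 to 0.52, limma adjusted p = 0.0748). The other probes gave 0.10 (ILMN_1218742, 95% interval -0.13 to 0.33) and -0.11 (ILMN_1247460, 95% interval -0.31 to 0.09) in this comparison and were not called. The called probe was dim, with an unnormalized signal of 122 to 241.4. Of all probes, 36.8% had a higher mean signal than ILMN_1243717, against 38.1% for ILMN_1218742 and 24.6% for ILMN_1247460, the brightest of the Opa1 probes. The gap between ILMN_1243717 and ILMN_1247460 changed by 0.40 (exact permutation test, two-sided p = 0.0286, adjusted p = 0.286), and their Pearson r over 16 arrays was -0.33. In sham hearts ILMN_1243717 read 7.49, 7.27, 7.74 and 7.90 in C57.YA, against 7.52, 7.42, 7.55 and 7.24 in C57BL/6J, with the same 2 sham C57.YA mice on the high side as for the first Mfn2 probe (r of 0.80 between these probes). Its nearest patterns were those of Bcl9l (0.931), Med21 (0.914), Svil (0.908), Trim44 (0.906) and Kansl3 (0.895).

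The Opa1 call was lost without CX C57.YA replicate 1, 2 or 3 or CX C57BL/6J replicate 2, 3 or 4 (differences of 0.23 to 0.31, limma adjusted p between 0.106 and 0.189). It was also lost with the atrial covariate, where the difference was 0.50 (SE 0.30, limma adjusted p = 0.56), against 0.29 (SE 0.11) without it.

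No probe of Dnm1l, Fis1, Mff or Mief1 was called in any comparison. Dnm1l, which encodes the GTPase Drp1, was measured by 2 probes annotated to different RefSeq transcripts. ILMN_3111421 averaged 10.97 ± 0.09 in CX C57.YA and 11.14 ± 0.09 in sham C57.YA hearts (SD, n = 4 each), a difference of -0.17 (95% interval -0.31 to -0.02, limma adjusted p = 0.114). It passed the threshold only under some alternatives, such as without sham C57.YA replicate 3 (-0.21, limma adjusted p = 0.0667). ILMN_2660267 averaged 9.26 ± 0.08 in CX C57.YA and 9.42 ± 0.09 in CX C57BL/6J hearts, a difference of -0.16 (limma adjusted p = 0.154), which passed without CX C57BL/6J replicate 4 (-0.21, adjusted p = 0.0843). ILMN_3111421 ran with Mfn1 over the arrays (Pearson r of 0.70 with each of both well-detected Mfn1 probes).

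Among the Drp1 receptors, Fis1 was not called, with differences between -0.04 and 0.16 over both probes and the 4 comparisons between groups. Its largest was on ILMN_2939295, which averaged 11.83 ± 0.08 in sham C57.YA and 11.67 ± 0.08 in sham C57BL/6J hearts (SD, n = 4 each, 0.16, limma adjusted p = 0.292). The other probe, ILMN_2939294, differed by 0.05 in this comparison, and the gap between the probes changed by -0.11 (exact permutation test, two-sided p = 0.0286, adjusted p = 0.286). ILMN_2939294 was called in CX hearts (0.18, limma adjusted p = 0.0944) without CX C57BL/6J replicate 2, and for castration in C57BL/6J with the atrial covariate (-0.73, 0.0868). Mff lay between -0.09 and 0.08 on its 2 detected probes in the same comparisons. Mief1 (ILMN_2940785) averaged 8.58 ± 0.12 in CX C57.YA and 8.77 ± 0.08 in sham C57.YA hearts (SD, n = 4 each), a difference of -0.19 whose 95% interval of -0.38 to 0.01 included 0 (limma adjusted p = 0.196). Of 10 pairs of probes to 1 gene, tested in 4 comparisons each, 4 of 40 tests reached the smallest p the exact test allows and 0 passed after adjustment. With 40 tests, a p at this floor of 0.0286 could pass only if many tests stood at or near it together. The adjusted values therefore cannot decide whether probes of 1 gene disagree.

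Other genes of mitochondrial form and upkeep were taken from 8 lists, with 83 genes in all and 1 probe per gene, the brightest one tested. Of these, 62 genes were tested. After castration in C57.YA, 3 were higher and 6 lower (14.5%, against 19.7% of all probes), and in castrated C57BL/6J mice 1 was higher and 3 lower (6.45%, against 8.81%). Between the strains 6 were higher and 10 lower in C57.YA CX hearts (25.8%, against 23.4%) and 0 were called in sham hearts (against 4.29%). Under median scaling the strain calls in CX hearts were 3 higher and 11 lower. The lists as a whole were therefore called about as often as all probes or less often. The bases are unlike, as 1 bright probe per gene is set against all tested probes.

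After castration in both strains, Sqstm1, the autophagy receptor p62, was higher (0.36 in C57.YA and 0.37 in C57BL/6J, limma adjusted p = 0.00183 and 0.0034), and Trak2, an adaptor that couples mitochondria to motor proteins, was lower (-0.34 and -0.46, adjusted p = 0.00128 and 0.000181). These calls were kept without each array in turn, but in C57BL/6J both were lost with the atrial covariate (Sqstm1 0.54, limma adjusted p = 0.277, and Trak2 -0.28, 0.586). In C57.YA, Nrf1, a transcription factor of respiratory chain genes, was lower in CX hearts (-0.35, limma adjusted p = 0.00685), as were the fission factor Mtfp1 (-0.29, adjusted p = 0.045), the prohibitin partner Stoml2 (-0.28, adjusted p = 0.0338), Letm1 of the inner membrane (-0.24, adjusted p = 0.0465) and the nuclear receptor Esrra (-0.18, adjusted p = 0.0946), whereas the autophagy kinase Ulk1 (0.29, adjusted p = 0.0562) and the anti-apoptotic Mcl1 (0.25, adjusted p = 0.0313) were higher. Of these, Nrf1 and Mcl1 kept their call without each array in turn, and Mtfp1 lost it without CX C57.YA replicate 1, 2 or 3, Stoml2 without sham C57.YA replicate 1, Letm1 without CX C57.YA replicate 1 or 2 or sham C57.YA replicate 2, and Ulk1 without CX C57.YA replicate 2 or 4 or sham C57.YA replicate 1 or 2. The call of Esrra was kept in 6 of 16 such fits. Without CX C57.YA replicate 2, 5 genes were called in place of 9, and under median scaling 3 (Sqstm1, Ulk1 and Trak2). In C57BL/6J, Trak1 (-0.24, limma adjusted p = 0.0457) and Esrra (-0.24, adjusted p = 0.0565) were lower in CX hearts, and 2 of the 4 calls were left without sham C57BL/6J replicate 3 or 4. Both were lost with the atrial covariate, at -0.04 for Trak1 (limma adjusted p = 0.958) and -0.32 for Esrra (0.577).

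Between the strains in CX hearts, Pink1, the kinase that starts mitophagy and marks mitofusins for removal, averaged 13.15 ± 0.10 in C57.YA and 12.59 ± 0.15 in C57BL/6J (SD, n = 4 each, difference 0.55, limma adjusted p = 0.00186). Ppara, a nuclear receptor of fatty acid oxidation (0.73, adjusted p = 0.00657), Ulk1 (0.38, adjusted p = 0.0126), Mief2, the paralog of Mief1 (0.35, adjusted p = 0.02), and Trak1 (0.27, adjusted p = 0.0107) were also higher in C57.YA. Lower in C57.YA were Nrf1 (-0.44, limma adjusted p = 0.00223), the anti-apoptotic Bcl2 (-0.46, adjusted p = 0.0274), Gabarapl1 (-0.36, adjusted p = 0.024), the mitochondrial phosphatase Pgam5 (-0.27, adjusted p = 0.0101), Mtfr1l (-0.27, adjusted p = 0.0362) and the outer membrane channel Vdac3 (-0.26, adjusted p = 0.0742). Of the 8 tested genes listed for Opa1 processing and its inner membrane partners, 4 were lower and 0 higher in C57.YA, where 11.8% of all probes were lower, and with so few genes nothing is read from this share. They were the protease subunit Spg7 (-0.31, adjusted p = 0.0233), the protease Parl (-0.19, adjusted p = 0.0475), Prelid1, a carrier of phospholipids (-0.22, adjusted p = 0.0696), and Letm1, a cation exchanger (-0.21, adjusted p = 0.0742), of which the last pair do not cleave Opa1. Parl lay outside the rule for named genes and was named after its values were seen. With the atrial covariate, which largely coincides with the CX C57BL/6J group, 0 of the 62 genes were called, against 16. The values of Mief2 (-0.10), Mtfr1l (0.08) and Vdac3 (0.11) changed sign, and this fit cannot tell atrial tissue apart from strain. Without CX C57BL/6J replicate 2 the call of Mtfr1l was lost, and Parl lost its call in 4 of 16 and Prelid1, Letm1 and Vdac3 each in 5 of 16 fits without 1 array. For the interaction, 2 genes were called (3.23%), Trak1 (0.40, limma adjusted p = 0.0408) and Nrf1 (-0.44, adjusted p = 0.0599), and Nrf1 kept its call in 8 of 16 fits without 1 array. Both calls were lost with the atrial covariate, at 0.22 (limma adjusted p = 0.764) and -0.28 (0.756).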

How the data were processed

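Male mice aged 12 weeks, 4 per group and 1 per array, gave left ventricular RNA for 16 arrays on 2 BeadChips. The authors deposited, per probe and array, an unnormalized intensity from BeadStudio (38.984 to 67559) with its detection p-value, bead number and bead standard error. They also deposited log2 values after quantile normalization, whose median was 6.807. Probe names in that log2 table could not be matched to those beside the intensities, so its lines were paired by value (all 25697, largest gap 5.43e-06). Results from it equal the main ones by this pairing, and it is no independent alternative. Under the names of the intensity table the ventricular gene Myl2 ranked first of all probes (rank 1), and under the other rank 5875. Probe genes came from the platform annotation, updated by Entrez number (23962 of 25697 probes).

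Intensities were log2-transformed and quantile-normalized without background subtraction, filtered at a detection p of 0.04 and fitted with limma 3.58.1 in R 4.3.3 with a mean per group and contrasts of surgery within strain, strain within surgery and their interaction. The deposited values carry no read count, and precision is limited by how many arrays there are and by signal above background. Probe pairs were compared with exact permutation tests (scipy 1.17.1). The fit was tested on simulated data. Alternatives were neqc, median scaling, other filters and thresholds, array weights, a replicate block, the 8 arrays of a comparison alone, leaving out arrays and the atrial covariate. The members, the lists and the alternatives were chosen with earlier results of these data known. Named genes were all member probes, at most 3 called genes per list and comparison with the largest difference, and the 5 named probes most like each called member probe. Promoters are RefSeq sequences of GRCm38.p6. Sequences of the array probes were not used here, so the part of a transcript that each probe reads is not given.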

Additional observations from a re-analysis of the deposited data

Results flagged for a closer look

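Of 64 sets of 4 arrays (16 tested member probes in 4 groups), 5 held an array whose gap to the nearest other, divided by the range of the set, was above Dixon's 95% critical value, and chance gives about 1 in 20. Both well-detected Mfn1 probes were lowest in sham C57BL/6J replicate 3, with ratios of 0.848 (ILMN_2719296) and 0.856 (ILMN_2950837). CX C57BL/6J replicate 4 was lowest for Dnm1l ILMN_2660267 (0.836) and for Mief1 ILMN_2940785 (0.921). Oma1 was highest in sham C57.YA replicate 2 (0.833).

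The interaction of strain and surgery was called for Trak1 (0.40, limma adjusted p = 0.0408) and for Nrf1 (-0.44, limma adjusted p = 0.0599). Castration gave 0.16 for Trak1 in C57.YA, which was not called (limma adjusted p = 0.121), and -0.24 in C57BL/6J, which was (limma adjusted p = 0.0457). Neither interaction was called under median scaling or with the atrial covariate. Nrf1 averaged 8.94 ± 0.03 in CX C57.YA and 9.29 ± 0.17 in sham C57.YA hearts, and 9.38 ± 0.07 in CX C57BL/6J and 9.29 ± 0.12 in sham C57BL/6J hearts (SD, n = 4 each).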

How the results depend on the processing

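None of the 7 called differences of member probes changed sign under any alternative run; the deposited log2 table is left aside, since it was paired by value and equals the main result. Member counts of 3, 0, 4, 0 and 0 (castration in C57.YA, castration in C57BL/6J, strain in CX hearts, strain in sham hearts, interaction) and counts of the other mitochondrial genes of 9, 4, 16, 0 and 2 moved as follows. With the atrial covariate, castration in C57BL/6J gave 1 member (a Fis1 probe) and strain in CX hearts 0, and the other genes gave 0 for castration in C57BL/6J, 0 for strain in CX hearts, 1 for strain in sham hearts and 0 for the interaction. Median scaling gave 3, 2, 1 and 0 other genes for castration in C57.YA and in C57BL/6J, strain in sham hearts and the interaction. With no detection filter, and at an adjusted p under 0.05, strain in CX hearts gave 2 members each. At 0.05 the interaction gave 1 other gene, and a detection p of at most 0.01 gave 1 for strain in sham hearts. Sham C57.YA arrays were also left out in pairs known to stand apart on some probes, Mfn2 among them, so that these counts are no test. Without replicates 1 and 2, the members gave 1, 1 and 3 (castration in C57.YA, castration in C57BL/6J, strain in sham hearts) and the other genes 4, 8 and 0 (castration in C57.YA, strain in sham hearts, interaction). Without replicates 3 and 4, the members gave 6, 1 and 2 (castration in C57.YA, castration in C57BL/6J, interaction) and the other genes 16 and 9 (castration in C57.YA, interaction).

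Leaving out 1 array gave 2 to 5 members for strain in CX hearts, 0 to 1 for strain in sham hearts and 0 to 1 for the interaction, and 5 to 12, 2 to 6, 0 to 3 and 1 to 3 other genes for castration in C57.YA and in C57BL/6J, strain in sham hearts and the interaction. With the replicate number as a block (replicate block), 1 member was called for castration in C57BL/6J, 1 for strain in sham hearts and 1 for the interaction, each the first Mfn2 probe. The labels do not say whether equal numbers mark paired mice or a shared batch. Of 24 pairs of arrays with 1 number, 8 had a correlation of deviations above 0.1 (range -0.0856 to 0.204). Arrays with unlike numbers were not compared, so that these values cannot decide it. With the atrial covariate the values of Mief2 (-0.10), Mtfr1l (0.08) and Vdac3 (0.11) for strain in CX hearts changed sign. The cause of these shifts was not tested. The BeadChip as a block was not run, because the sources used here do not give the chip of each array.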
